A study of Mus musculus with 10 samples.

Results

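The genes described here encode the proteins of the cytosolic ribosome, measured by RNA-seq in whole skin of male C57BL/6 mice. Members were the protein-coding genes of the count table whose mouse symbol is that of a ribosomal protein of the large subunit (Rpl and a number, Rplp0, Rplp1 and Rplp2) or of the small subunit (Rps and a number, Rpsa). Ribosomal protein kinases and pseudogenes were left out. The rule found 83 members, 51 of the large and 32 of the small subunit, among 47729 genes in the table. Skin came from 5 mice labelled 24 months and from 5 labelled 9 months, with no allele, agent or treatment named for either age. Each younger sample is labelled 9 months, but the description of the whole series writes 2 months for that group, and this doubt touches every comparison by age. Each library has its own number, but the labels do not say in words that each is a separate animal, and p-values measure the spread between these libraries.

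The ribosome is built from ribosomal RNA and from one copy each of most of these proteins, and it translates messenger RNA in the cytoplasm. Ribosomal protein messages are short, abundant and co-regulated, since subunits are assembled from matched amounts of their proteins. Many begin with a C followed by a run of pyrimidines, the 5′ terminal oligopyrimidine tract, through which mTOR signalling controls their translation. In skin, dividing cells of the epidermis and of growing hair are the cells best known for high ribosome production.

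Promoter windows show that start-site run. RefSeq promoters of mouse build GRCm38.p6 were held for 63 of the 83 members. In 13 of these (20.6%) the annotated first base, in at least 1 promoter of the gene, was a C followed by at least 4 pyrimidines, against 3.01% of 27025 genes with a promoter. The following windows, each 20 bases before and 20 bases from the annotated start, are printed 5′ to 3′ on the gene's strand, with capitals marking the unbroken pyrimidine run that begins at the first base. The first 4 are canonical ribosomal proteins, and the last 3 belong to paralogs expressed beside or in place of a canonical protein.
Rplp2, chr7:141447631-141447670, plus strand: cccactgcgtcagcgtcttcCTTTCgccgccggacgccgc
Rps21, chr2:180257359-180257398, plus strand: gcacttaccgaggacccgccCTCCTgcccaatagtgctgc
Rps6, chr4:86857348-86857387, minus strand: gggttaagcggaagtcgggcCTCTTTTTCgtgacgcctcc
Rps27, chr3:90213629-90213668, minus strand: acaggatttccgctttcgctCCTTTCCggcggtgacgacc
Rps27l, chr9:66946066-66946105, plus strand: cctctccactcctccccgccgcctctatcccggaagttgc
Rpl22l1, chr3:28805488-28805527, plus strand: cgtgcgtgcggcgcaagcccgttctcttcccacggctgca
Rpl3l, chr17:24727806-24727845, plus strand: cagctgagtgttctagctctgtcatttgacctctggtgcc
The 3 paralog windows have no capitals, because no pyrimidine stands at their annotated first base. Most members with a promoter, canonical ones included, also lack a C followed by at least 4 pyrimidines there. A C followed by 4 pyrimidines stood within a few bases of the start in 29 members (46.0%, against 21.2% of all genes). Rps27l and Rpl22l1 were among these, and Rpl3l was not. In the promoter of 250 bases before to 50 bases after the start, searched on both strands, CCGGAAG (the letters bound by ETS factors) was found in 26 members, or 41.3%, against 9.93% of all genes. These letters stand inside the printed Rps27l window. AAGATGG (YY1) was found in 10 members (15.9%, against 7.28%) and CACGTG (the E-box bound by MYC) in 6 (9.52%, against 8.09%). TATAAA between 45 and 15 bases before the start was found in 1 member (1.59%, against 2.57%). CCGGAAG and AAGATGG can overlap by their shared AAG, and a match describes the letters only.

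Libraries held 31556025 to 40766879 gene counts at 24 months and 29324259 to 55976007 at 9 months, with 30344373 in 9 months replicate 1. Scaling factors by the trimmed mean of M values (TMM) lay between 0.935 and 1.07. Levels are given below as CPM, counts per 1000000 after this scaling. The libraries also differed in cell makeup: a list of 20 growing-hair genes, of which 19 were found and 18 passed the filter on low counts, summed to between 63.8 and 151 CPM at 24 months, against 78.5, 413, 323, 11143 and 32854 CPM at 9 months. Whole skin is a mixture, so fewer cells of a type and less RNA per cell cannot be told apart.

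Ribosomal protein genes were present in every library, at very unequal levels. Of the 83 members, 82 passed the filter on low counts, with 17668 genes tested in all. Per kilobase of transcript, Rplp1 had a mean level of 1086 CPM per kb, Rpl4 of 1012, Rpl8 of 982 and Rps3 of 831 CPM per kb, all among the highest. Rplp1 belongs to the stalk that recruits elongation factors, Rpl4 and Rpl8 lie near the exit tunnel and the catalytic centre, and Rps3 sits where messenger RNA enters. The lowest members that passed were Rpl23a with 0.700, Rps6 with 1.51, Rpl19 with 1.67, Rpl24 with 1.69 and Rpsa with 2.75 CPM per kb. Rps6 is the ribosomal target of the S6 kinases and Rpsa is also known as the laminin receptor precursor. Of all 83 members, 9 averaged over 500 CPM and 23 under 10 CPM, of which 5 were under 2 CPM, the undetected Rpl10l among them.

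Rpl10l, the testis paralog of the large-subunit gene Rpl10, was the member that did not pass. It had 0 counts in all 10 libraries, which allows up to 0.0536 to 0.102 CPM depending on the library (3 counts, counting error only). Rpl39l, known from male germ cells, was at 3.18, 1.35, 2.40, 1.30 and 3.85 CPM at 24 months and at 4.55, 3.16, 2.48, 2.29 and 2.54 CPM at 9 months. Rps4l is a transcribed processed pseudogene in the annotation used, GENCODE vM21, and so is not a member.

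Low levels went with sequence shared with other genes, as the plot of level against shared sequence shows. For each member, the share of its 50-base stretches that also occur in another annotated gene was computed, since many processed pseudogenes copy ribosomal protein messages. How the authors' counting treated reads that align to several places is not given in the sources used here. The 27 members with the least sharing (0 to 28.9%) had a median of 191 CPM per kb. The 27 in the middle (30.2 to 55.5%) had 64.7, and the 28 with the most sharing (58.9 to 95.1%) had 26.8 CPM per kb. Spearman's rho across the 82 genes, which are not independent replicates, was -0.45. Rpl8 shared 6.30% of its stretches, whereas Rpl23a shared 85.7% with, among others, 28 pseudogenes, Rps6 84.6%, Rpl24 81.7% and Rpl19 73.9%. High sharing did not always go with a low level: Rplp1 shared 60.0%. Levels of members with high sharing are therefore uncertain. The 272 pseudogenes named after members held 0.00605 to 0.0112% of all counts, and 859 pseudogenes that share a stretch with a member held 0.0417 to 0.0820%.

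**Figure D1:**
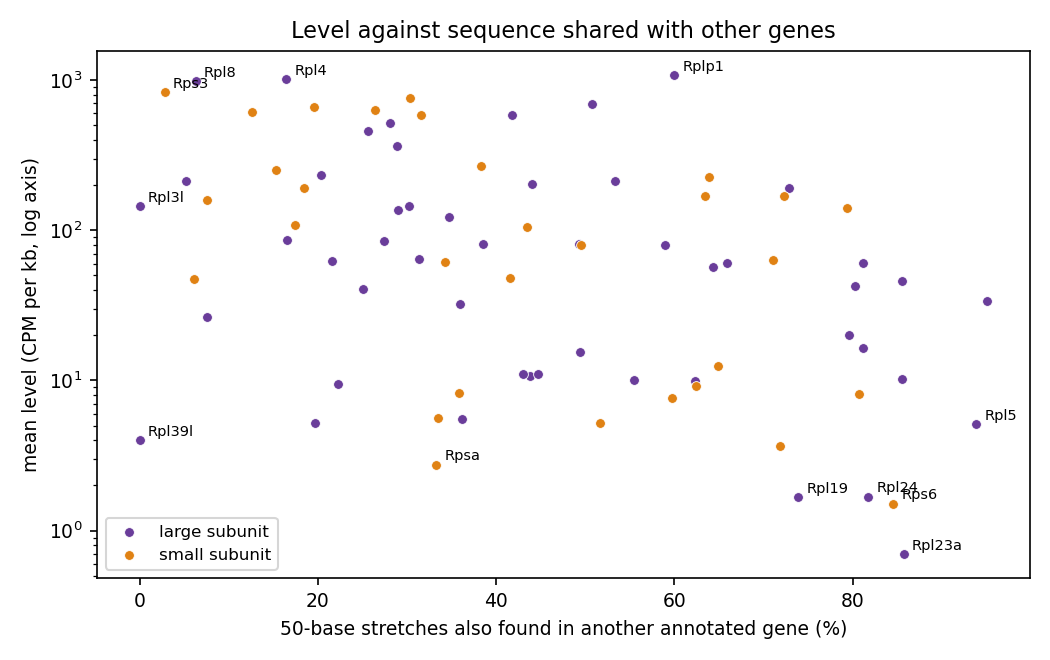
Mean level of 81 members (CPM per kb, log axis) against the percentage of 50-base stretches also found in another annotated gene, with points coloured by subunit. Members with little sharing, such as Rpl8 at 982 CPM per kb, lie mostly above those with much, such as Rpl23a at 0.700, while Rplp1 is high at 60.0% sharing.

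One library, 9 months replicate 1, stood above all others. Members together took 1.47, 1.47, 1.09, 1.24 and 1.55% of gene counts at 24 months, and 2.08, 1.26, 1.10, 1.13 and 1.31% at 9 months, in replicate order. The highest and lowest libraries differed 1.92-fold, and 1.43-fold without 9 months replicate 1. Means were 1.36 ± 0.195% at 24 months (SD, n = 5) and 1.38 ± 0.403% at 9 months (SD, n = 5). Without replicate 1 the 9 months mean was 1.20 ± 0.0996% (SD, n = 4). The ages overlap, and most of the spread at 9 months comes from replicate 1.

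**Figure D2:**
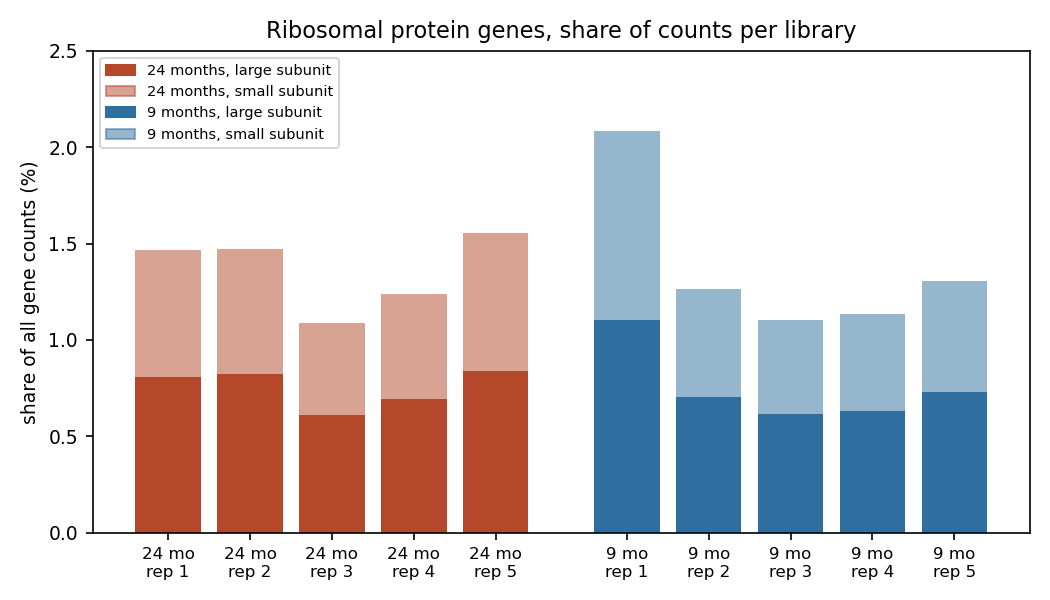
Share of all gene counts (%) taken by ribosomal protein genes in each library, as stacked bars with the large subunit below in full colour and the small subunit above in a paler shade. 9 months replicate 1 reaches 2.08%, and the other 9 libraries lie between 1.09 and 1.55%.

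Member by member, the same library led. The median over the 82 members of 9 months replicate 1 minus the median of the other 4 libraries of 9 months was 0.87 log2 CPM, or 1.83-fold, against 0.01 over all 17668 genes. Differences of the middle members ran from 0.60 to 1.05, and the whole range from 0.00 to 1.403. For all genes the span from the 5th to the 95th percentile was -1.71 to 1.03. All 82 members were above the other libraries' median, a position held by 50.4% of all genes. Of the members, 65 were over 1.5-fold higher (19.4% of all genes) and 32 over 2-fold higher (5.62% of all genes). In 72 members this library was the highest of 10, against 22.9% of all genes. Since a single library is set against others, this is a description and no test was made.

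Among members of at least 10 CPM, the 6 with the largest difference were Rpl37a, Rps21, Rpl39, Rpl37, Rplp2 and Rps28. Rpl37a (chr1:72711290-72713813, plus strand), a zinc-finger protein of the large subunit, was at 47.1, 43.2, 35.1, 37.9 and 39.5 CPM at 24 months and at 98.3, 42.0, 36.9, 36.8 and 37.4 CPM at 9 months. Rps21 of the small subunit was at 249, 244, 179, 211 and 250 CPM at 24 months and at 521, 222, 198, 193 and 205 CPM at 9 months. In both genes the first value at 9 months stood alone and the other 9 libraries lay close together. Rpl39, a small protein that lines the exit tunnel, was at 53.8, 50.7, 41.9, 43.1 and 60.1 CPM at 24 months and at 106, 49.0, 42.9, 39.8 and 39.0 CPM at 9 months. Rplp2, Rplp1's partner in the stalk, was at 348, 314, 259, 252 and 298 CPM at 24 months and at 634, 255, 252, 264 and 288 CPM at 9 months. Replicate 1 over the median of the other 4 was 2.64-fold for Rpl37a, 2.59-fold for Rps21, 2.56-fold for Rpl39 and 2.45-fold for Rplp2. Rpl37 stood 2.47-fold and Rps28 2.39-fold higher in the same comparison.

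The most abundant members did likewise. Rplp1 was at 561, 520, 415, 491 and 633 CPM at 24 months and at 992, 476, 466, 424 and 438 CPM at 9 months. Rpl4 differed less, with 1763, 1768, 1297, 1502 and 1560 CPM at 24 months and 1991, 1450, 1344, 1355 and 1538 CPM at 9 months. Replicate 1 stood 2.19-fold above the other 9 months libraries' median for Rplp1 and 1.42-fold for Rpl4. Rpl8 and Rps3 stood 1.95-fold and 1.80-fold above it. Rplp0, the base of the stalk, was at 823, 824, 688, 766 and 775 CPM at 24 months and at 1121, 768, 724, 699 and 779 CPM at 9 months, 0.59 log2 in the same measure. Rpl41, the shortest ribosomal protein, stood 2.00-fold above the other 9 months libraries, Rps4x 0.76 log2 and Rpsa 2.54-fold.

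**Figure D3:**
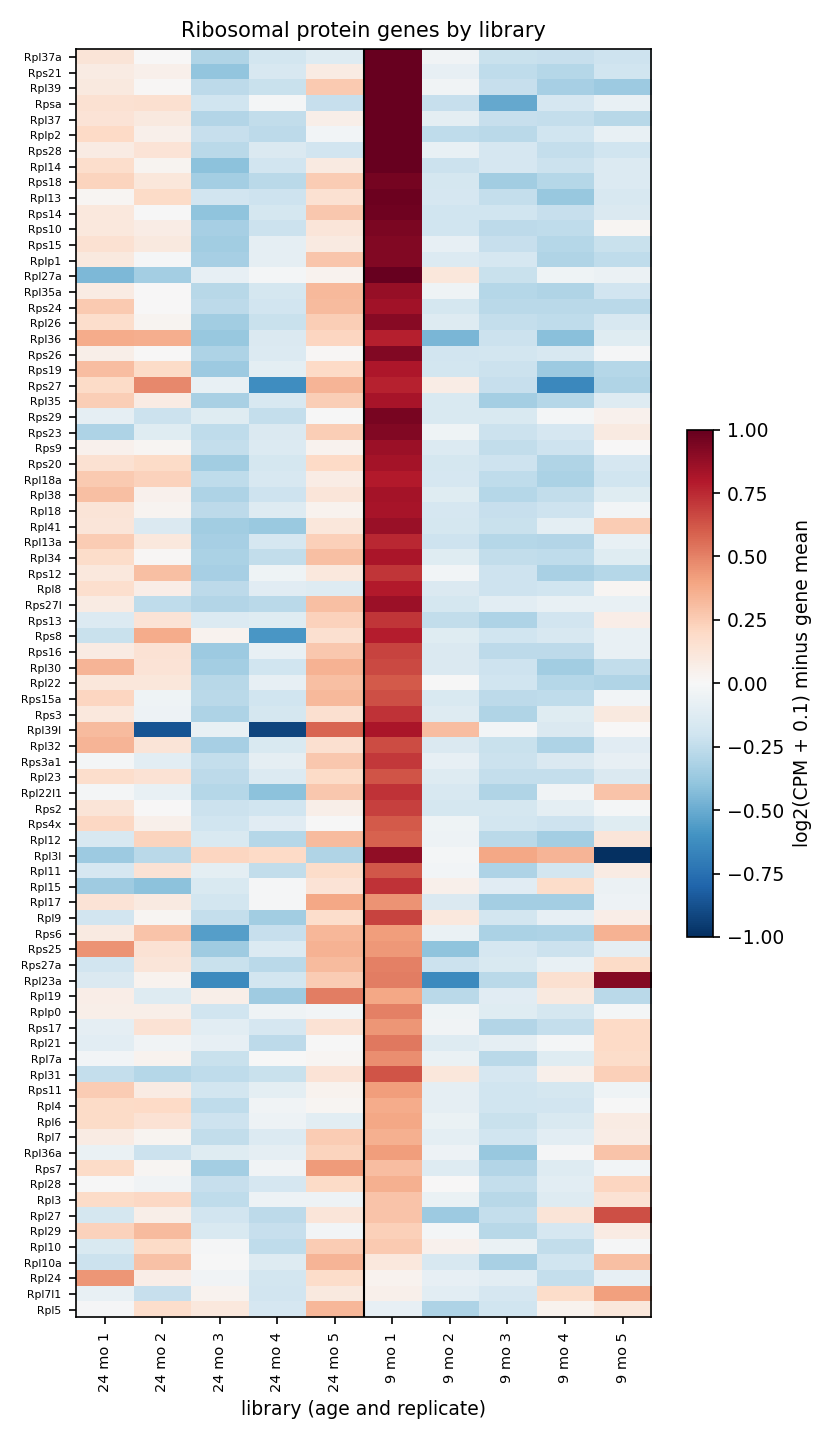
log2(CPM + 0.1) minus the gene's mean over 10 libraries, for 81 members in rows ordered by the excess of 9 months replicate 1, with the 5 libraries of 24 months left of the 5 of 9 months; the darkest colours also cover larger differences. The column of 9 months replicate 1 is high in nearly all rows, fading towards Rpl5 at the bottom, and the columns of 24 months replicate 3 and 9 months replicates 3 and 4 are low in most.

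In 10 members 9 months replicate 1 was not the highest library: Rpl10a, Rpl19, Rpl23a, Rpl24, Rpl27, Rpl29, Rpl5, Rpl7l1, Rps25 and Rps7. Rpl5 (chr5:107900502-107909005, plus strand), which together with Rpl11 binds Mdm2, the ligase that limits p53, showed no excess. It was at 10.3, 11.8, 11.2, 9.28 and 13.1 CPM at 24 months and at 9.84, 8.41, 9.06, 10.7 and 11.3 CPM at 9 months. It shared 93.8% of its stretches with other genes. Rpl7l1, a paralog of Rpl7, shared only 7.61%, and it was also close to the other libraries in replicate 1, at 53.0 CPM against 47.4, 45.4, 58.0 and 67.8 CPM. Its levels at 24 months were 48.6, 43.4, 52.2, 44.7 and 54.7 CPM. Rpl5 and Rpl7l1 have mean transcript lengths of 2045 and 1958 bases. Other coding genes of 1500 to 2500 bases had a median difference of 0.24 log2 in this library, and the 5 members of that length ran from 0.00 to 1.34. The other members listed as not highest are shorter, with mean lengths from 560 (Rpl23a) to 887 bases (Rps7). Rpl7 itself was 1.37-fold higher in replicate 1 than the median of the other 4. Rpl10a, Rpl10, Rpl3 and Rps7, the other members of at least 10 CPM with the smallest difference, were 1.22-fold, 1.24-fold, 1.30-fold and 1.36-fold higher.

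The subunits did not keep the same proportion in this library. The summed counts of large-subunit over small-subunit members were 1.23, 1.26, 1.28, 1.27 and 1.17 at 24 months and 1.13, 1.26, 1.27, 1.26 and 1.26 at 9 months. The median difference of 9 months replicate 1 was 0.997 log2 over 32 small-subunit members and 0.79 over 50 large-subunit members. The subunits were not matched for transcript length, and its part in these values was not tested. The lowest ratios belonged to 9 months replicate 1 and 24 months replicate 5, which had the highest shares of their ages.

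Transcript length moved with the difference, for members and for other genes alike. Among protein-coding genes that are not members, the median difference of 9 months replicate 1 was 1.06 log2 for 82 genes with a mean transcript length under 500 bases. It was 0.91 for 358 genes of 500 to 750 bases, 0.78 for 606 of 750 to 1000 and 0.57 for 1696 of 1000 to 1500. Beyond that it was 0.24 for 3960 genes of 1500 to 2500 bases, -0.11 for 4655 of 2500 to 4000 and -0.49 for 3772 over 4000. Members in the same bins had medians of 1.05 (9 genes), 0.95 (27), 0.95 (22), 0.73 (17) and 0.51 (5). The 2 members annotated as longer than 2500 bases, Rps20 and Rps15a, had 1.02 and 0.85. With a smooth trend on length taken off each library, the members' median difference was 0.23 log2 (1.17-fold), 61 of 82 were above the other libraries' median and 26 were highest of 10. With length and GC content taken off together it was 0.18 (1.13-fold), with 18 highest. The median difference over all genes was -0.01 in either case. Before any trend was taken off, 22.9% of all genes were highest in this library, and the share afterwards is not given here. Within members, Spearman's rho of the difference across the 82 genes was -0.33 with length, 0.23 with GC content, -0.31 with shared sequence and 0.25 with level. The 17 members with under 20% shared sequence had a median difference of 0.95 log2, and 16 of them were highest in this library.

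**Figure D4:**
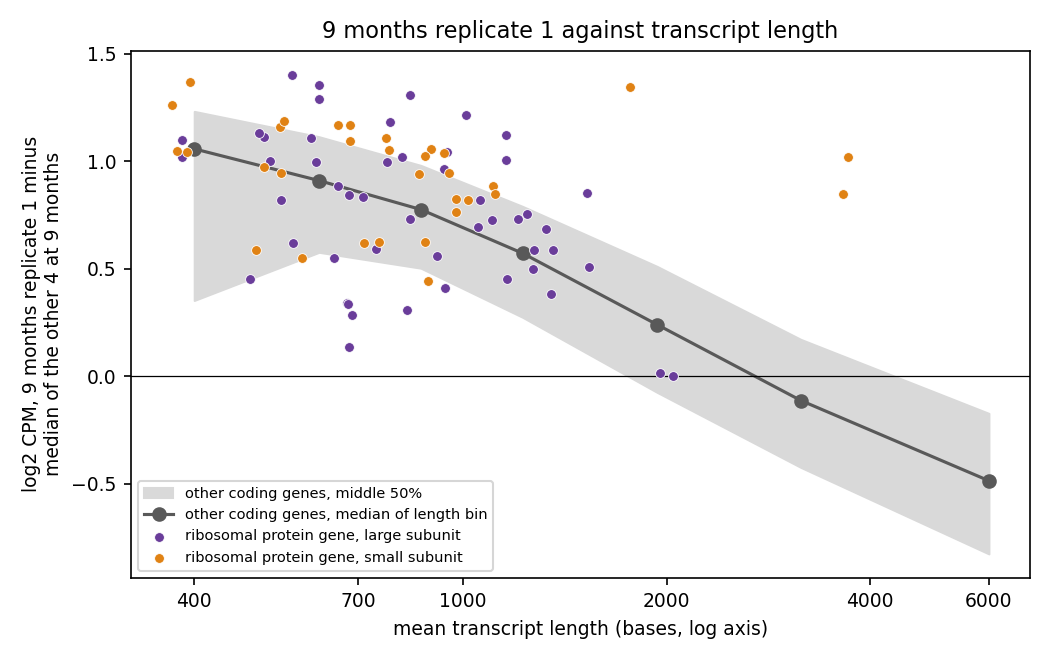
Difference in log2 CPM between 9 months replicate 1 and the median of the other 4 libraries of 9 months, against mean transcript length (bases, log axis). Points are the 82 members by subunit; the grey line and band are the median and the middle 50% of other coding genes per length bin. Other genes go from 1.06 under 500 bases to -0.49 over 4000, and most members lie close to or above this line.

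Other short messages were high in the same library. Across 10 libraries, the members under 1000 bases (58 genes) had median deviations from the gene's mean of 0.11, 0.06, -0.27, -0.18 and 0.20 log2 at 24 months and of 0.79, -0.13, -0.23, -0.23 and -0.08 at 9 months. Other coding genes under 1000 bases had 0.06, -0.16, -0.13, -0.16 and 0.00 at 24 months and 0.72, -0.11, -0.06, -0.03 and -0.25 at 9 months. Both sets were highest in 9 months replicate 1, and they differed most in 24 months replicates 2 and 5 and, at 9 months, in replicates 3 to 5. Of 38 nuclear-encoded genes of oxidative phosphorylation, 37 were highest in 9 months replicate 1, with a median difference of 1.17 log2 from the other 9 months libraries. Of 77 mitochondrial ribosomal protein genes tested, 68 were highest there, with a median of 0.74. Of 30 pseudogenes named after members that passed the filter, 28 were highest there, with a median of 1.02. The immediate early gene Fos was also highest there, at 582 CPM against 26.0 to 282 CPM in the other 9 months libraries, and the mitochondrially encoded share was 4.45% in a range of 2.07 to 4.69% over the libraries. The part of transcript length or of these other measures in the ribosomal protein levels was not tested beyond the length and GC trends given.

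Members were also divided by the start-site run, counted as present only where the annotated first base was a C followed by at least 4 pyrimidines. The 13 members with the run had a median difference in 9 months replicate 1 of 1.05 log2. All 13 were highest there, against 22.9% of all genes. The 49 tested members with a promoter but no such C-led run had 0.84, with 41 highest. Some of these, such as Rpl27a with 16 bases, have a pyrimidine run that starts with T. Outside the symbol rule, a list of 22 genes with oligopyrimidine messages had a median of 0.55, with 13 highest. Its largest difference, 1.11 log2, was that of Fau, which encodes a small-subunit protein, so the list is not free of ribosomal protein genes. The difference between these groups was not tested, and the groups were not matched for transcript length.

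The other 9 libraries varied less. The median over members of the SD of log2 CPM across all 10 libraries was 0.33, against 0.37 over all genes. Without 9 months replicate 1 it was 0.20, against 0.31 over all genes. After the members' mean of each library was taken off, the median SD left was 0.14, and 0.12 without replicate 1. Median deviations of the members were 0.11, 0.06, -0.26, -0.17 and 0.18 log2 at 24 months and 0.72, -0.13, -0.23, -0.20 and -0.06 at 9 months. 24 months replicate 3 was the lowest library in 33 members and 9 months replicate 3 in 16. The 2 libraries with the highest growing-hair sums, 9 months replicates 4 and 5, were at -0.20 and -0.06. With the length trend removed these were at -0.16 and 0.16, and 9 months replicate 1 and 24 months replicate 5 were each at 0.16.

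The comparison by age asked whether ribosomal protein messages differed in skin between 24 and 9 months. No member was called, in either direction, by edgeR's quasi-likelihood test at a Benjamini-Hochberg adjusted p under 0.05, and neither was any other gene (0.0% of 17668 higher and 0.0% lower). At an unadjusted p under 0.05 no member was higher and none lower, against 6.62% of all genes higher and 6.45% lower. The smallest p among members was that of Rpl31 (adjusted p = 0.443 by edgeR). In no member did the 2 ages fail to overlap, whereas 1.66% of all genes were higher and 1.23% lower without overlap. By DESeq2, 0 members were called, although that test called 1.38% of 31170 genes higher and 1.53% lower. At an unadjusted p under 0.05 DESeq2 gave 1 member, Rpl31, lower, against 4.98% of genes higher and 5.18% lower. By limma-voom 0 members were called (0.0% of genes in either direction), and 0 were under an unadjusted 0.05 (6.05% of genes higher and 4.78% lower). The misses do not show that the ages were alike: fold changes of single members carried standard errors such as 0.25 log2 for Rplp1 and 0.18 for Rpl4.

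The sign of the list depended on 9 months replicate 1. Over all libraries, the median log2 fold change of 24 over 9 months was -0.10, against -0.01 over all genes, and 22 members were positive and 60 negative (48.4% of all genes were positive). Without 9 months replicate 1 the median was 0.14, against 0.00 over all genes, with 66 positive and 16 negative (50.8% of all genes positive). The sign turned in 44 members, each time to positive. Without that library, 0 members were called (0.0% of genes higher and 0.0% lower), and Rps19 alone was under an unadjusted p of 0.05, where 7.6% of all genes were higher and 8.05% lower. Again, no member had ages without overlap (2.88% of all genes higher and 2.62% lower). With the length trend removed from all 10 libraries, the median was 0.02.

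**Figure D5:**
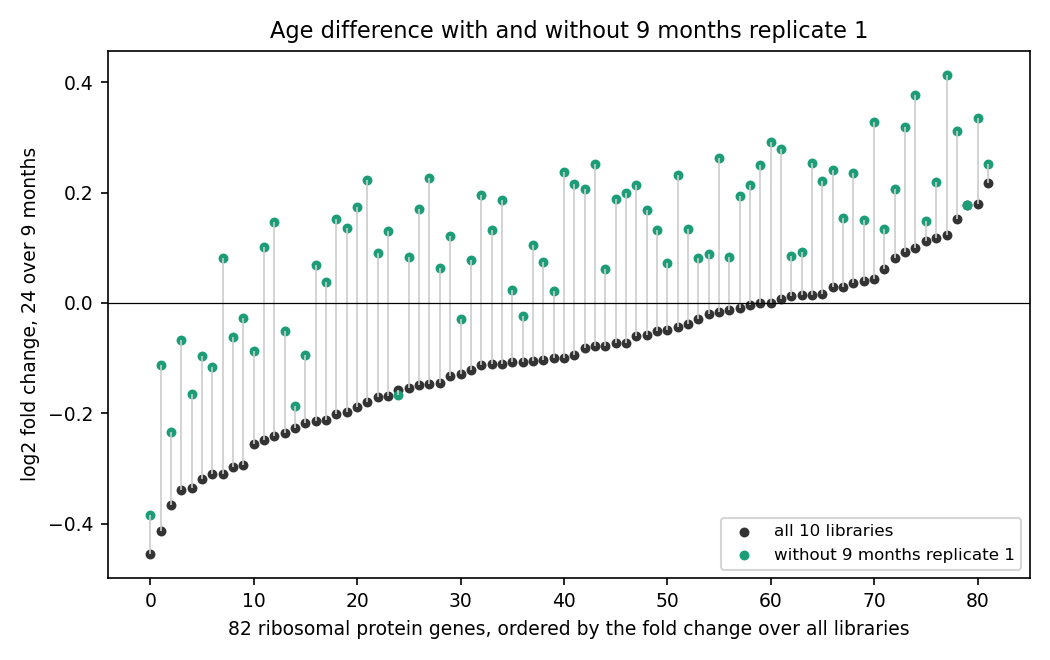
log2 fold change of 24 over 9 months for the 82 members, ordered by the value over all 10 libraries (dark points), with the value without 9 months replicate 1 (green points) joined to it. The green points lie mostly above the dark ones, with medians of 0.14 and -0.10.

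Rps19 (chr7:24884371-24889806, plus strand), the small-subunit gene most often mutated in human Diamond-Blackfan anaemia, is named after its value was seen. It was at 206, 189, 129, 155 and 191 CPM at 24 months and at 290, 146, 143, 129 and 137 CPM at 9 months. Without 9 months replicate 1 its log2 fold change was 0.33 ± 0.15 (standard error; adjusted p = 0.314 by edgeR), so it did not pass after adjustment. With that library it was 0.04 ± 0.24, and the ages overlapped either way.

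Among members of at least 10 CPM, the largest negative values were those of Rpl27a, Rpl15, Rpl3l, Rpl37a, Rpl41 and Rpl9. Rpl27a (chr7:109519147-109522367, plus strand), a large-subunit protein, was at 26.1, 28.3, 33.8, 35.2 and 36.7 CPM at 24 months and at 75.02, 38.8, 30.6, 34.7 and 34.3 CPM at 9 months. Its log2 fold change was -0.41 ± 0.24, and -0.11 ± 0.13 without 9 months replicate 1. Rpl15, a core protein of the large subunit, was at 34.3, 33.0, 39.5, 43.4 and 48.2 CPM at 24 months and at 72.5, 45.5, 40.5, 49.8 and 42.1 CPM at 9 months, with -0.34 ± 0.18 and, without that library, -0.17 ± 0.13. In both genes 9 months replicate 1 was the single high library, and 24 months replicates 1 and 2 were the lowest 2 of that age. Rpl37a had -0.31, Rpl41 -0.30 and Rpl9 -0.26, and without 9 months replicate 1 these were 0.08, -0.06 and -0.09.

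Among members of at least 10 CPM, the largest positive values were those of Rps25, Rpl5, Rpl17, Rps7, Rpl10a and Rpl30. Rps25 (chr9:44407139-44410427, plus strand), a small-subunit protein that viral internal ribosome entry sites depend on, was at 170, 138, 97.2, 113 and 158 CPM at 24 months and at 168, 94.1, 111, 107 and 117 CPM at 9 months. Its log2 fold change was 0.18 ± 0.19, and 0.33 ± 0.17 without 9 months replicate 1. Rpl30 was at 155, 134, 96.5, 106 and 155 CPM at 24 months and at 192, 110, 106, 95.8 and 103 CPM at 9 months. In both genes 24 months replicates 1, 2 and 5 stood above 9 months replicates 2 to 5, and 24 months replicates 3 and 4 did not. Rpl5 had 0.18, Rpl17 0.15, Rps7 0.12 and Rpl10a 0.11. Without 9 months replicate 1 these were 0.18, 0.31, 0.22 and 0.15, and Rpl30 had 0.09 with it and 0.32 without it.

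Paralogs of canonical proteins had their own levels. Rpl3l (chr17:24727820-24736143, plus strand) replaces Rpl3 in the ribosomes of striated muscle. It was at 128, 136, 191, 189 and 133 CPM at 24 months and at 305, 162, 215, 208 and 78.5 CPM at 9 months. Rpl3 was at 70.6, 71.4, 51.9, 59.8 and 59.7 CPM at 24 months and at 75.4, 59.1, 50.9, 56.6 and 68.3 CPM at 9 months, but 85.6% of its stretches are shared with other genes and 0% of those of Rpl3l. Rpl3l over Rpl3 averaged 2.56 ± 0.821 at 24 months and 3.17 ± 1.27 at 9 months (SD, n = 5 each), and the ages overlapped. Rpl3l moved with muscle: the other 12 skeletal muscle markers, such as Acta1 and Ckm, summed to 39962, 37897, 53416, 53059 and 32945 CPM at 24 months and to 55211, 39638, 65088, 51044 and 23009 CPM at 9 months. Rpl3l was 0.319 to 0.405% of that sum at 24 months and 0.331 to 0.553% at 9 months. Its lowest level and the lowest muscle sum were both those of 9 months replicate 5, and its share of the sum was highest in 9 months replicate 1. The part of muscle in the Rpl3l level was not tested.

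Rps27l, a p53 target, is the paralog of Rps27. It was at 59.8, 47.4, 45.9, 46.6 and 69.4 CPM at 24 months and at 102, 49.9, 52.5, 53.5 and 53.6 CPM at 9 months. Rps27 was at 3.18, 3.89, 2.63, 1.76 and 3.53 CPM at 24 months and at 4.79, 2.92, 2.35, 1.74 and 2.23 CPM at 9 months. The ratio averaged 18.9 ± 5.12 at 24 months and 23.1 ± 5.03 at 9 months (SD, n = 5 each), with 17.5% of stretches shared in Rps27l and 59.7% in Rps27. Rpl22l1 over Rpl22, a pair known from T cell development, averaged 0.119 ± 0.0105 at 24 months and 0.146 ± 0.0319 at 9 months. The highest ratio, 0.196, was that of 9 months replicate 5, where Rpl22 was at 260 CPM. Rpl39l over Rpl39 averaged 0.0474 ± 0.0176 and Rpl7l1 over Rpl7 0.200 ± 0.0307 at 24 months, against 0.0576 ± 0.00891 and 0.220 ± 0.0379 at 9 months. All 4 pairs overlapped between ages.

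Members also differed in the course they kept of their own. Once the members' mean of each library was taken off, the SD left was largest, among members of at least 10 CPM, for Rpl3l with 0.54 log2, Rpl7l1 with 0.32, Rpl5 with 0.31, Rpl27a with 0.28, Rpl10a with 0.28 and Rpl15 with 0.26. Below 10 CPM, Rpl39l kept 0.47 and Rpl23a 0.46 log2. Rps3, by contrast, kept 0.07 log2. Outside the members, the genes whose log2 CPM was most like the members' mean, of 10460 coding genes of at least 10 CPM, were ranked by Pearson's r over the 10 libraries, as a description. Rack1, a small-subunit protein outside the symbol rule, came first with 0.983, followed by Txndc17 with 0.979, Lsm3 with 0.975, Pdcd6 with 0.969 and Tdp2 with 0.969. Bola2, Med8, Tm2d3, Prkrip1 and the elongation factor gene Eef1b2 followed, with 0.959, 0.959, 0.956, 0.953 and 0.952. The points share 1 high library: without 9 months replicate 1 the values were 0.940 for Rack1, 0.926 for Txndc17 and 0.788 for Eef1b2. Rack1 was at 1182, 1175, 965, 1058 and 1176 CPM at 24 months and at 1613, 1050.1, 964, 1002 and 1142 CPM at 9 months. Rpl36al, also outside the rule, was highest in 9 months replicate 1 too, at 86.1 CPM, with 39.4 to 51.7 CPM at 24 months and 41.5 to 46.5 CPM in the other libraries of 9 months. Fau, whose product is split into a small-subunit protein and a ubiquitin-like part, was at 9.87 CPM there, with 4.48 to 6.36 CPM at 24 months and 3.94 to 6.76 CPM in the others of 9 months.

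Other genes of translation gave few differences by age, and no list had a gene called after adjustment by edgeR. Of 7 elongation factors tested, 0 were higher and 1 lower at an unadjusted p under 0.05, and the list's median was -0.17 log2, or -0.04 without 9 months replicate 1. The lower one was Eef1g, a subunit of the exchange factor of elongation factor 1, at -0.37 ± 0.15. Of 46 initiation factors, 0 were higher and 1, Eif2b4, lower at -0.59 ± 0.19, with a median of -0.09. Of 61 genes of ribosome assembly and ribosomal RNA synthesis, 1 was higher (Riok1, 0.29 ± 0.13) and 1 lower (Nhp2, -0.41 ± 0.18), with a median of -0.01. In 9 months replicate 1 this assembly list had a median difference of -0.05 log2, with 14 of 61 highest there. Of 25 genes of mTOR and MYC control, 1 was higher (Myc, 0.87 ± 0.26) and 1 lower (Mycn, -3.29 ± 0.83). Mycn averaged 1.02 ± 0.397 CPM at 24 months (SD, n = 5) and was at 2.26, 1.99, 1.75, 12.6 and 31.7 CPM at 9 months, highest in the 2 libraries with the highest growing-hair sums. These shares lie beside the 6.62% higher and 6.45% lower among all genes. Without 9 months replicate 1 the log2 fold changes were -0.23 for Eef1g, -0.58 for Eif2b4, 0.24 for Riok1 and -0.19 for Nhp2. Those of Myc and Mycn were 0.93 and -3.55.

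Summed levels of other cells' markers are given beside these results. T cell and NK cell markers, of which 9 of 13 were higher at an unadjusted p under 0.05, summed to 60.3 to 113 CPM at 24 months and to 26.3 to 62.2 CPM at 9 months. B cell and plasma cell markers, of which 9 of 10 were higher, summed to 277 to 1837 CPM at 24 months and to 160 to 512 CPM at 9 months. Of 12 fibroblast markers 5 were lower at an unadjusted p under 0.05, with sums of 1669 to 8413 CPM at 24 months and 10092 to 14501 CPM at 9 months. Of 20 cell division genes 15 were lower, with sums of 288 to 344 CPM at 24 months and 355 to 1084 CPM at 9 months, where replicate 1 was at 394 CPM. Neutrophil markers, 6 of 7 tested higher, summed to 55.3 to 139 CPM at 24 months and 34.4 to 46.9 CPM at 9 months. Melanocyte markers, 4 of 6 tested lower, summed to 42.0 to 47.8 CPM at 24 months. At 9 months they summed to 46.9, 49.8, 43.8, 166 and 355 CPM, highest in replicates 4 and 5, which had the highest growing-hair sums. All 18 growing-hair genes tested were lower. Of all genes, 6.62% were higher and 6.45% lower at an unadjusted p under 0.05 by edgeR. In the epidermal keratinocyte, sebaceous gland, white adipocyte, skeletal muscle, macrophage, endothelial, Schwann cell and red blood cell lists, 0 to 2 genes passed an unadjusted p under 0.05 in either direction. The part of cell makeup in the ribosomal protein levels was not tested.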

How the data were processed

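Whole-skin RNA was made into mRNA-seq libraries, per the labels' protocols. Processing used CASAVA 1.7, STAR 2.4.1d and featureCounts 1.4.6-p4 on GRCm38, per the submitters' processing notes. Annotation release, strand setting and treatment of multi-mapped reads: not given in the sources used here. The authors deposited raw counts per gene, which entered every main result, and a table of RPKM values. In 8455 genes, counts over the deposited RPKM values did not keep 1 divisor per library (median SD 0.444 log2), so RPKM served as an alternative alone (limma 3.58.1 on log2(RPKM + 0.1)).

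Genes were matched by ID to GENCODE vM21, and 419 of 47729 IDs had no match. Members and lists were chosen with earlier results of these data known. Counts of all 10 libraries were filtered with filterByExpr, scaled by TMM and tested by edgeR 4.0.16 (quasi-likelihood, R 4.3.3), 24 over 9 months, adjusted over 17668 genes. DESeq2 1.42.0 and limma-voom were alternatives. Log2 CPM used a prior count of 2. Length and GC trends (loess, span 0.4) were added after the data were seen, as was the set with under 20% sharing. Lengths are means over a gene's transcripts tagged basic in the annotation, for coding genes the protein-coding ones alone. Other transcripts were used only where a gene had none of these. The scripts were checked on simulated counts. Depth was 29324259 to 55976007 counts per library, and limits at 0 cover counting error only. The text names, among members of at least 10 CPM, the 6 with the largest positive and negative differences by age. Among the same members it names the 6 with the largest and smallest difference in 9 months replicate 1, all positive. It also names the 6 of these with most own course. Of all tested, it names the 5 highest and lowest by level, paralogs and stalk proteins. The 10 genes most like the members' mean and up to 4 genes per list by p are named too. Single values of 2 genes under this rule are not reported here.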

Additional observations from a re-analysis of the deposited data

Results flagged for a closer look

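In groups of 5 libraries, a value was marked when its gap to the nearest other library exceeded 0.71 of the group's range, which chance alone gives in about 1 in 20 groups. The library below was singled out beforehand and many members were named for their excess in it, so these marks describe that excess and test nothing. All 17 marked values were those of 9 months replicate 1, each higher than the other 4 libraries of 9 months. The share of counts in ribosomal protein genes was 2.08%, against 1.10 to 1.31%. Among the most abundant members, Rpl8 was at 1557 CPM against 776 to 911, Rplp0 at 1121 against 699 to 779, and Rplp1 at 992 against 424 to 476 CPM. Rplp2 was at 634 CPM against 252 to 288, Rps21 at 521 against 193 to 222, Rpl22 at 490 against 260 to 319, and Rps4x at 247 against 140 to 157 CPM. Rpl30 was at 192 CPM against 95.8 to 110, Rpl37 at 109 against 42.8 to 48.4, Rpl39 at 106 against 39.0 to 49.0, and Rps27l at 102 against 49.9 to 53.6 CPM. Rpl37a was at 98.3 CPM against 36.8 to 42.0, Rpl27a at 75.02 against 30.6 to 38.8, and Rps28 at 45.8 against 18.4 to 20.6 CPM. Rpl9 was at 19.7 CPM against 10.8 to 13.3 and Rpsa at 10.3 against 3.21 to 4.39 CPM. Over all members, 49 of 82 were marked with this library high, against 1402 of 17668 genes (7.94%).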

How the results depend on the processing

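No member was called by age under any of 25 alternatives. The median log2 fold change ranged from -0.19 to 0.14 over 26 alternatives and from -0.17 to 0.14 with single libraries left out; it was positive without 9 months replicate 1 (0.14), with voom quality weights (0.06) and with trends on length or on length and GC removed (0.02 each). The count of members at an unadjusted p under 0.05 was 0 to 1 with single libraries left out. It was 1 by DESeq2 (Rpl31), without 9 months replicate 1 (Rps19), 3 (Rpl31) or 5 (Rpl3l), without 24 months replicate 5 (Rpl31) and without 9 months replicates 4 and 5 (Rpl3l), and 0 under the other 19. The share of counts, 24 minus 9 months, was -0.0137 percentage points and lay between -0.0826 and 0.162 with single libraries left out. The excess of 9 months replicate 1, 0.87 log2, was 0.78 with library totals only, 0.23 with the length trend removed and 0.18 with length and GC removed, and 0.85 to 0.95 under 6 others. The median SD of members, 0.33, was 0.205 with length removed, 0.207 with length and GC removed, and between 0.203 (without 9 months replicate 1) and 0.344 with single libraries left out. No paired analysis was possible because the titles give each library a number of its own. Depth limits the 5 members under 2 CPM, Rpl10l among them. Low levels of members with much shared sequence are uncertain.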
